A study of Homo sapiens with 5 samples.

Results

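ATXN2L, which encodes an RNA-binding protein found in stress granules, and 9 further genes of stress granule proteins were followed across 5 expression arrays of MonoMac6 cells. The 10 genes were ATXN2L, ATXN2, G3BP1, G3BP2, CAPRIN1, TIA1, TIAL1, PABPC1, USP10 and FMR1, and every probe set annotated to 1 of these symbols alone was taken. This gave 36 probe sets for 9 of the 10 genes, of 19775 genes that had such a probe set on the arrays. No probe set had USP10 as its single symbol in the annotation used here, so USP10 has no value. ATXN2L was chosen because it was lower on each of the 4 stimulated arrays, so its values are a description and support nothing. The other genes were listed for their roles in stress granules.

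MonoMac6 is an established human leukaemia cell line of monocytic origin. Cells were cultured for 12 h with 1 of 4 eicosanoids at 100 nM, namely the leukotrienes B4 and C4 and the lipoxins A4 and B4, and set against unstimulated MonoMac6 cells. The eicosanoids came as DMSO stocks, and the labels do not say whether unstimulated cells had DMSO. Each condition was read on 1 array from total RNA, so there is no replicate and no test, and every difference below is one between 2 arrays that may include the variation of a single culture. Because total RNA of a whole culture was read, fewer cells carrying a transcript and less transcript per cell cannot be told apart. No group was exposed to an agent the labels call a stressor.

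Stress granules are cytoplasmic assemblies of messenger RNA, translation initiation factors and RNA-binding proteins that form when initiation is blocked, for example after phosphorylation of the initiation factor eIF2 alpha. G3BP1 and G3BP2 drive their assembly, CAPRIN1 binds the G3BP proteins and favours it, and USP10 binds the same proteins and opposes it. ATXN2 and its paralogue ATXN2L bind the poly(A)-binding protein PABPC1, TIA1 and TIAL1 bind U-rich and AU-rich sequences, and FMR1 represses translation. Granule assembly is a matter of protein and RNA interactions, so transcript levels do not report it.

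The promoter windows of ATXN2L and G3BP1 are shown because these were the members whose brightest probe sets lay furthest below and above the unstimulated array with leukotriene C4. Both come from RefSeq (GRCh38.p14) and run from 250 bases before to 50 bases after the gene's start. ATXN2L lies on chromosome 16 (chr16:28822749-28823048, plus strand) and G3BP1 on chromosome 5 (chr5:151771704-151772003, plus strand). Capitals mark the single-base run of 12 or more in ATXN2L and the CCAAT boxes, on either strand, in G3BP1.
ATXN2L: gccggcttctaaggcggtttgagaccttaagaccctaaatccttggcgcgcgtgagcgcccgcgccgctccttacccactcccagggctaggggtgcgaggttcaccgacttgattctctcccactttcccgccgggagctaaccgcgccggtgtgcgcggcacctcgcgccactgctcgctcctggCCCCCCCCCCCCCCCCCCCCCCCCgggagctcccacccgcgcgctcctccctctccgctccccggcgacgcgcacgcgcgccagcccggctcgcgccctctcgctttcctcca
G3BP1: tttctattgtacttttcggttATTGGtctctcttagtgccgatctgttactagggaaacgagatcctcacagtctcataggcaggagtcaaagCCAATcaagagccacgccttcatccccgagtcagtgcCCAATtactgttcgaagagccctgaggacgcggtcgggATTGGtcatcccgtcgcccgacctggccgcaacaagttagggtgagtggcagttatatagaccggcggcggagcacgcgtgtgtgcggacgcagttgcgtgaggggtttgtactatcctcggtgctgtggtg

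The ATXN2L window had a G+C content of 72.7%, against a median of 58.7% over 35116 windows of 300 bases, and it held 37 CpG dinucleotides, against a median of 14. Its run of 24 C bases is of a kind, a single base repeated 12 times or more, that 2.26% of windows held. The G3BP1 window had a G+C content of 55.0%, with 22 CpG dinucleotides, and 4 matches to CCAAT; 34.6% of windows held at least 1 match and 0.991% held 4 or more. On both strands, the heat shock element GAANNTTC (6.77% of windows), the cAMP response element TGACGTCA (1.85%), the E-box CACGTG (7.26%), TATAAA (11.5%), the GC box GGGCGG (45.0%) and the ETS core CCGGAAGT (4.14%) were searched for and had no match in either window. CCAAT had no match in the ATXN2L window. These are matches of letters only. RefSeq windows were matched for 8 of the 10 genes (13 windows in all), not for ATXN2 and PABPC1.

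ATXN2L was lower on both of its probe sets with every eicosanoid. On the brighter one (201806_s_at) the scaled signal, a linear intensity with no unit, was 427 with leukotriene B4, 368 with leukotriene C4, 527 with lipoxin A4 and 417 with lipoxin B4, against 975 on the unstimulated array. All 4 stimulated arrays thus lay between 368 and 527, well under the unstimulated one. These correspond to log2 differences of -1.19, -1.41, -0.89 and -1.23, or to signals 2.28-fold, 2.65-fold, 1.85-fold and 2.34-fold lower.

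The second ATXN2L probe set (207798_s_at) had 243 with leukotriene B4, 247 with leukotriene C4, 403 with lipoxin A4 and 173 with lipoxin B4, against 629 on the unstimulated array. The unstimulated array was again the highest, and the lipoxin A4 array again lay nearest to it. The log2 differences were -1.37, -1.35, -0.64 and -1.86 in the same order, the last a signal 3.63-fold lower. Every one of these 10 signals lay above the floor of 48.7 under which signals were not distinguished, so none of the differences is a bound.

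**Figure D1:**
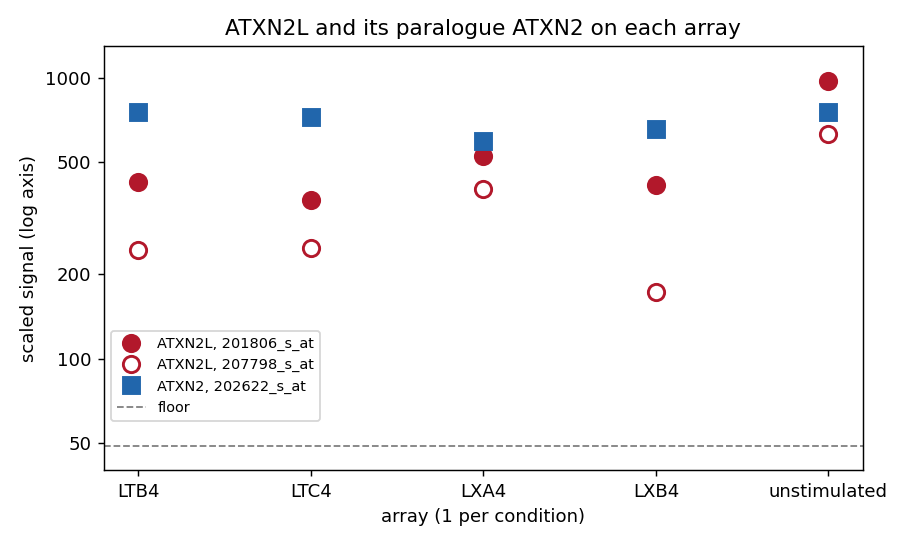
Scaled signals (log axis) of the 2 ATXN2L probe sets and the ATXN2 probe set on each of the 5 arrays, 1 point per array; the dashed line is the floor of 48.7. Both ATXN2L probe sets lie lower on the 4 stimulated arrays (368 to 527 and 173 to 403) than on the unstimulated array (975 and 629), while ATXN2 spans 595 to 755.

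At the threshold of 2-fold, ATXN2L was the 1 member gene of 9 counted as lower with leukotriene B4, leukotriene C4 and lipoxin B4, and with lipoxin A4 the count was 0. A gene is represented here by its brightest measured probe set. Over all 15374 measured genes, 1.72%, 1.66%, 1.69% and 1.96% were at least 2-fold lower with leukotriene B4, leukotriene C4, lipoxin A4 and lipoxin B4. ATXN2L was selected on these same differences, so nothing is read from its place in those shares. No member gene was at least 2-fold higher on any array, where 0.702%, 1.18%, 0.702% and 0.507% of all genes were.

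Among the stimulated arrays, ATXN2L differed by up to 0.52 on the log2 scale on the brighter probe set and by up to 1.22 on the other. Leukotriene B4 carries 2 hydroxyl groups and leukotriene C4 a glutathione group, and their arrays differed by 0.22 (leukotriene B4 minus leukotriene C4) on the first and -0.03 on the second. The positional isomers lipoxin A4 and lipoxin B4 differed by 0.34 (lipoxin A4 minus lipoxin B4) on the first and 1.22 on the second. The 2 probe sets therefore placed lipoxin A4 highest of the 4, and the lowest was leukotriene C4 on one and lipoxin B4 on the other. With 1 array each, none of the 6 pairs of compounds can be told apart from the variation between cultures.

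Signals of ribosomal RNA control probe sets moved with the same split of the arrays. For 18S rRNA, the probe set of the transcript's middle read 4.90-fold (leukotriene B4), 16.46-fold (leukotriene C4), 1.96-fold (lipoxin A4) and 5.66-fold (lipoxin B4) over the unstimulated array. The probe set of its 3' end had 37847 with leukotriene B4, 43345 with leukotriene C4, 24194 with lipoxin A4 and 27366 with lipoxin B4, against 12718 on the unstimulated array. Both placed leukotriene C4 highest and lipoxin A4 lowest of the stimulated arrays, and they differed in the order of leukotriene B4 and lipoxin B4. Its part in the result was not tested. The 3' to 5' signal ratio of the control transcripts, a measure of RNA integrity, was 1.10 to 1.13 for ACTB and at most 1.06 for GAPDH on the stimulated arrays, against 1.13 and 1.03 on the unstimulated array.

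Most listed markers of monocytic cells were above the floor, at widely differing signals. Of 12 listed genes 10 had a probe set of their own, and 9 of these were above the floor on at least 1 array; LYZ, the secreted lysozyme, reached 49119, and FCGR1A, a high-affinity Fc receptor, was under the floor on every array. Their summed signal was 62403 to 79934 on the stimulated arrays and 83352 on the unstimulated array, most of it from LYZ. CEBPA (up to 18296), SPI1 (up to 7471) and FCER1G (up to 7280.4) were also bright, and MPO (up to 809.6) and TYROBP (up to 525) less so. CD14 (188 to 319), ITGAM (127 to 178) and CSF1R (223 to 309.8) were dim, in the range of the fibroblast marker COL1A1 (up to 299). Summed signals of other cell types' markers were 191 to 357 for T cells, 292 to 379 for B cells and 239 to 354 for erythroid cells and platelets. They were 260.4 to 478 for fibroblasts and endothelium and 73.0 to 196 for epithelium and liver. The lists differ in length and probe sets in affinity, so these sums do not rank the cell types.

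ATXN2, the paralogue of ATXN2L, did not share its difference. Its single probe set had 754 with leukotriene B4, 726 with leukotriene C4, 595 with lipoxin A4 and 659.9 with lipoxin B4, against 755 on the unstimulated array. The leukotriene B4 array was nearly level with the unstimulated one, and lipoxin A4, where ATXN2L was least reduced, gave the lowest ATXN2 signal. The log2 differences ran from 0.00 to -0.34.

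G3BP1, a nucleator of stress granules, was slightly higher on its brightest probe set (201503_at), at 6334 with leukotriene B4, 6922 with leukotriene C4, 6179 with lipoxin A4 and 6616 with lipoxin B4, against 5319 on the unstimulated array. All stimulated arrays lay above the unstimulated one, by log2 differences of 0.22 to 0.38. Its 7 probe sets did not move one way: 3 were higher on all 4 stimulated arrays, 3 were lower on all 4 and 1 was mixed. The mean over its probe sets was negative, with differences of -0.17 to -0.24. That mean includes 1557350_at, which had the most negative differences of the gene (-0.83 to -1.34), and its values of -1.34 were set by the floor. With leukotriene B4, where the mean was -0.17, every G3BP1 probe set was above the floor on both arrays, so no value there was set by it. Probe set 222187_x_at, above the floor on all 5 arrays, also lowered the mean, with differences of -0.57 to -0.76. The sign for G3BP1 thus depended on whether the brightest probe set or the mean was taken.

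The G3BP1 probe sets that were lower had mean signals of 337, 215 and 53.3, and those that were higher 6249.8, 1762 and 88.0. Probe set 222187_x_at had 185, 198, 190.3 and 210.4 with leukotriene B4, leukotriene C4, lipoxin A4 and lipoxin B4, against 313 on the unstimulated array, with differences of -0.57 to -0.76. The suffix x marks probes that can also bind other transcripts. Probe set 1557350_at was above the floor on 2 arrays only, at 69.6 with leukotriene B4 against 124 on the unstimulated array; its difference of -1.34 on the other 3 arrays is a bound set by the floor.

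G3BP2, the close relative of G3BP1 with the same role, had 5813 with leukotriene B4, 5272 with leukotriene C4, 5504 with lipoxin A4 and 5528 with lipoxin B4 on its brightest probe set (208841_s_at), against 4699 on the unstimulated array. The unstimulated array was lowest and the log2 differences were 0.17 to 0.31. Probe set 208840_s_at gave 0.01 to 0.16, and 206383_s_at gave 0.49, 0.44, 0.23 and 0.00 with leukotriene B4, leukotriene C4, lipoxin A4 and lipoxin B4.

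CAPRIN1, the partner of the G3BP proteins, had near level signals on its brightest probe set (200723_s_at), with 17366, 17441, 16434 and 17111 for leukotriene B4, leukotriene C4, lipoxin A4 and lipoxin B4, against 16125 on the unstimulated array. The log2 differences of 0.03 to 0.11 turned to -0.01 with lipoxin A4 in the values as deposited and to 0.00 with leukotriene C4 and lipoxin A4 after quantile normalization. The third brightest probe set, 200722_s_at, was lower on each array, by differences of -0.14 to -0.27. Its 2 dimmest probe sets were lower: 243370_at had 86.7 to 108 on the stimulated arrays against 153 on the unstimulated array, and 236850_at was above the floor on the unstimulated array alone, so that it was measured only through that array. The other 4 probe sets had differences between -0.12 and 0.30.

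TIA1, an RNA-binding protein that represses translation and aggregates through its prion-like part, was higher or level. Its brightest probe set (201448_at) had 1498 with leukotriene B4, 1211 with leukotriene C4, 1302 with lipoxin A4 and 1364 with lipoxin B4, against 1149 on the unstimulated array. Of its 6 measured probe sets 4 were higher on all 4 stimulated arrays and 0 lower on all 4. The widest difference was 0.71, with leukotriene B4 on probe set 1554890_a_at (777 against 475).

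TIAL1, the paralogue of TIA1, had 7844 with leukotriene B4, 8327 with leukotriene C4, 7602 with lipoxin A4 and 6965 with lipoxin B4 on its brightest probe set (202406_s_at), against 7066 on the unstimulated array. The log2 differences were -0.02 to 0.24, so the unstimulated array lay within the range of the others. Its dimmest probe set, 217500_at, was lower with each compound, at 120.1, 204, 244 and 153 with leukotriene B4, leukotriene C4, lipoxin A4 and lipoxin B4, against 299. That probe set alone reached 2-fold among the TIAL1 probe sets, with leukotriene B4 (-1.32); the remaining 2 gave -0.27 to 0.26.

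PABPC1, which coats the poly(A) tail and binds ATXN2 and ATXN2L, was read by 1 measured probe set (215157_x_at), whose probes can also bind other members of its gene family, so its value is uncertain. It had 31019.8 with leukotriene B4, 34651 with leukotriene C4, 30977 with lipoxin A4 and 24233 with lipoxin B4, against 34109 on the unstimulated array. The lipoxin B4 array stood lowest, with a log2 difference of -0.49. This difference shrank to -0.13 after quantile normalization, but was -0.52 in the values as deposited and stayed at -0.49 under the other alternatives. The 0.02 with leukotriene C4 turned to -0.08 after quantile normalization and to -0.05 in the values as deposited. LYZ, another very bright gene, was lower by a similar amount on the lipoxin B4 array (36105 against 49119, log2 -0.44). The other PABPC1 probe set was under the floor on every array, as was 1 of TIA1.

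FMR1, the translational repressor lost in fragile X syndrome, was higher on both probe sets. Probe set 215245_x_at had 1383 with leukotriene B4, 1397 with leukotriene C4, 1404 with lipoxin A4 and 1466 with lipoxin B4, against 1171 on the unstimulated array. The 4 stimulated arrays lay within 0.08 of one another on the log2 scale and 0.24 to 0.32 above the unstimulated one. The other, 203689_s_at, had differences of 0.14 to 0.45.

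**Figure D2:**
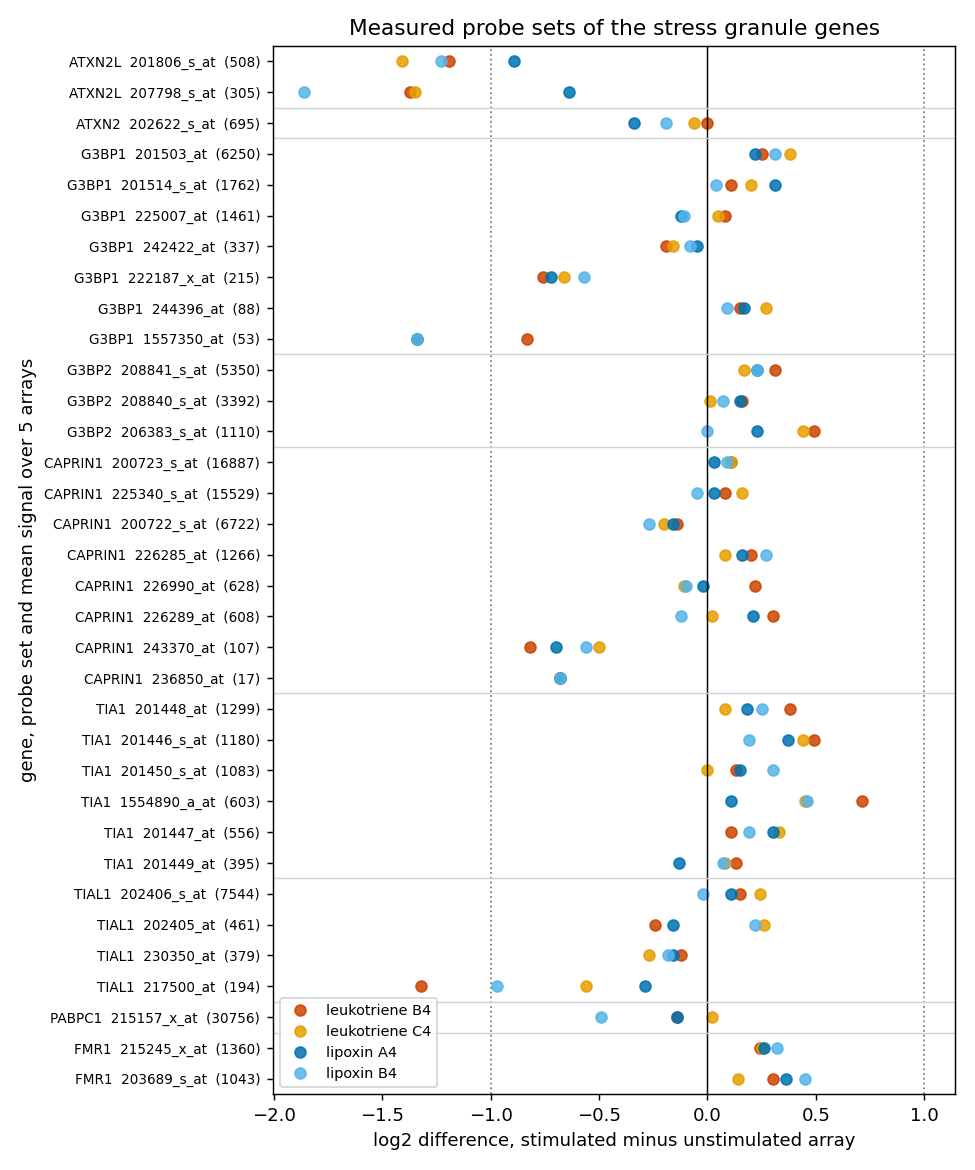
Log2 differences of each stimulated array from the unstimulated array for the 34 measured probe sets, grouped by gene, with the mean signal over 5 arrays in brackets; dotted lines mark 2-fold. The 2 ATXN2L probe sets lie between -0.64 and -1.86, and the other probe sets between -1.34 and 0.71, with those under about -0.5 on the probe sets of G3BP1, CAPRIN1 and TIAL1 with mean signals of 215 or less.

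Of the 36 probe sets, 34 were measured, meaning above the floor on at least 1 array, and 32 were above it on all 5. At least 2-fold lower were 3 with leukotriene B4, 3 with leukotriene C4, 1 with lipoxin A4 and 3 with lipoxin B4, where 1.86%, 2.07%, 1.89% and 2.38% of all measured probe sets were; those not of ATXN2L were G3BP1 1557350_at, a bound by the floor, with leukotriene C4 and both lipoxins, and TIAL1 217500_at with leukotriene B4. Among the 34, 11 were lower on all 4 stimulated arrays, where 23.7% of all measured probe sets were, and 13 were higher on all 4, where 19.5% were. At the level of genes, 2 of 9 (ATXN2L and ATXN2) were lower on all 4, with 21.4% over all genes, and 5 (G3BP1, G3BP2, CAPRIN1, TIA1 and FMR1) were higher on all 4, with 24.2% over all genes. These 4 comparisons share the unstimulated array, so 1 high or low signal there shows in all of them.

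The share of probe sets lower or higher on all 4 stimulated arrays varied with brightness over the whole array. Under a mean signal of 200, 4 of 5 measured member probe sets were lower on all 4 stimulated arrays and 1 higher, with 29.2% and 7.67% over all probe sets of that class. These shares are partly fixed by the floor, since a probe set above it on the unstimulated array alone is lower on all 4 by construction. Among probe sets of that class above the floor on all 5 arrays, 2 of 3 members were lower and 1 higher, with 26.9% and 17.5% over all. Between 200 and 1000, 6 of 12 were lower and 2 higher (22.1% and 27.0%), and 2 of the 6 are the ATXN2L probe sets, chosen for being lower; without them 4 of 10 were lower. Over 1000, 1 of 17 was lower and 10 higher (12.8% and 38.6%). Of the 4 dim ones that were lower, CAPRIN1 236850_at was above the floor on the unstimulated array alone, so its direction was fixed by the floor, and G3BP1 1557350_at was above it on the leukotriene B4 and unstimulated arrays, so that its difference of -0.83 with leukotriene B4 was measured and the other 3 were set by the floor. The higher signals of the bright member probe sets were thus in the direction that was the more frequent one at their brightness.

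The size of the ATXN2L difference was also set beside that of other probe sets. Its 2 probe sets have mean signals of 508 and 305, and both were at least 1.5-fold lower on all 4 arrays; this held for 0.363% of all probe sets between 200 and 1000 and for 2.17% of all measured probe sets. As ATXN2L was chosen on these values, the shares describe its place and test nothing. In total 4 of the 34 member probe sets met that threshold, and the other 2 were G3BP1 1557350_at and CAPRIN1 236850_at, for which the floor set 3 and 4 of the 4 differences.

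**Figure D3:**
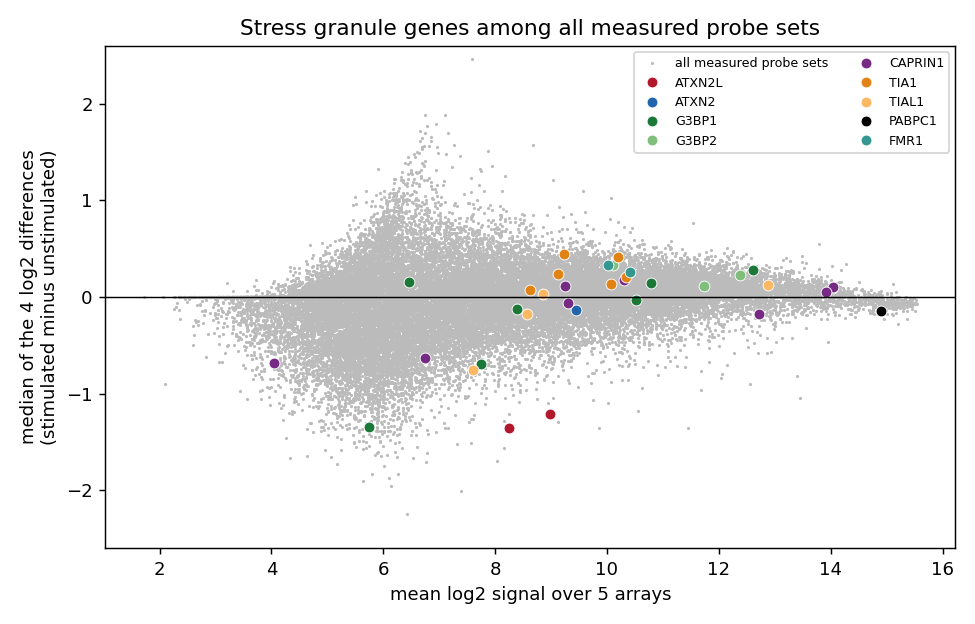
Median of the 4 log2 differences (stimulated minus unstimulated) against mean log2 signal for all 36755 measured probe sets (grey) and for the member probe sets (coloured by gene). The 2 ATXN2L points lie at -1.21 and -1.36, below most but not all grey points at their signal, and the bright members lie near 0 or slightly above it.

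Leaving out ATXN2L, the 8 other genes had median log2 differences of 0.20 with leukotriene B4, 0.14 with leukotriene C4, 0.14 with lipoxin A4 and 0.16 with lipoxin B4, beside 0.00, 0.06, 0.00 and 0.00 over all measured genes. With the mean of all measured probe sets of a gene in place of its brightest, these medians turned to -0.05, -0.02, -0.13 and -0.19. By the brightest probe set, their largest difference of either sign was -0.49, for PABPC1 with lipoxin B4. None reached 1.5-fold on the brightest probe set, a threshold passed downwards by 7.11%, 6.52%, 6.65% and 7.86% of all genes and upwards by 3.47%, 5.67%, 3.23% and 3.24%.

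Other genes of the pathway were taken from 5 lists holding 127 genes, of which 115 were measured. By the brightest probe set, TDRD3, a scaffold protein that binds the FMR1 protein, was the 1 gene at least 2-fold apart on any array. It had 589 with leukotriene B4, 352 with leukotriene C4, 367 with lipoxin A4 and 419 with lipoxin B4, against 260.4 on the unstimulated array. It was highest with leukotriene B4 (log2 1.18) and higher on the other arrays by 0.44 to 0.69. Its other 2 probe sets gave -0.16 to 0.68. Over all genes, 0.702% were at least 2-fold higher with leukotriene B4. Dimmer probe sets of other listed genes passed 2-fold in both directions, such as those of FAM120A (to 2.23) and CELF1 (to -1.57). Of the 115 genes, 16 were lower on all 4 arrays and 47 higher on all 4, beside the 21.4% and 24.2% of all genes. Most of them were bright: 93 had a mean signal over 1000, and of these 12 were lower and 40 higher on all 4, close to the 11.4% and 41.7% of all genes of that brightness. This count, like that of dim probe sets above the floor on all 5 arrays, was chosen after the data were seen.

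Among 33 measured assembly factors and clients of stress granules, medians were 0.09, 0.15, 0.07 and 0.07 with leukotriene B4, leukotriene C4, lipoxin A4 and lipoxin B4. Over all measured genes the medians were 0.00, 0.06, 0.00 and 0.00. Of the 33 genes, 16 were higher on all 4 arrays and 5 lower, beside 24.2% and 21.4% of all genes. Most of the 33 were bright, and over a mean signal of 1000 the shares of all genes were 41.7% and 11.4%. UBAP2L, a G3BP1-binding assembly factor, had differences of -0.10 to -0.43 on its brightest probe set and of -0.48 to 0.02 on its 3 others. The 3 other lists with over 14 measured genes had medians of -0.01 to 0.14 (27 translation initiation factors), 0.03 to 0.11 (15 genes of eIF2 alpha phosphorylation and its reversal) and 0.04 to 0.12 (27 genes of processing bodies and mRNA decay). The 13 measured genes of granule clearance had medians of 0.02 to 0.10.

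By their brightest probe sets, the kinases that phosphorylate eIF2 alpha did not reach 1.5-fold on any array. EIF2AK1, activated by lack of haem, differed by -0.12 to 0.09, EIF2AK2, activated by double-stranded RNA, by -0.01 to 0.31, EIF2AK3, activated by unfolded protein, by 0.02 to 0.21, and EIF2AK4, activated by lack of amino acids, by 0.09 to 0.37. Their substrate EIF2S1 had 5833, 6152, 6148 and 5968 with leukotriene B4, leukotriene C4, lipoxin A4 and lipoxin B4, against 4882 on the unstimulated array. PPP1R15A, the stress-induced subunit of the eIF2 alpha phosphatase, had differences of -0.11 to -0.26 on its brightest probe set and of -0.22 to 0.21 on its other one. These genes were chosen for their role, after their values were seen.

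**Figure D4:**
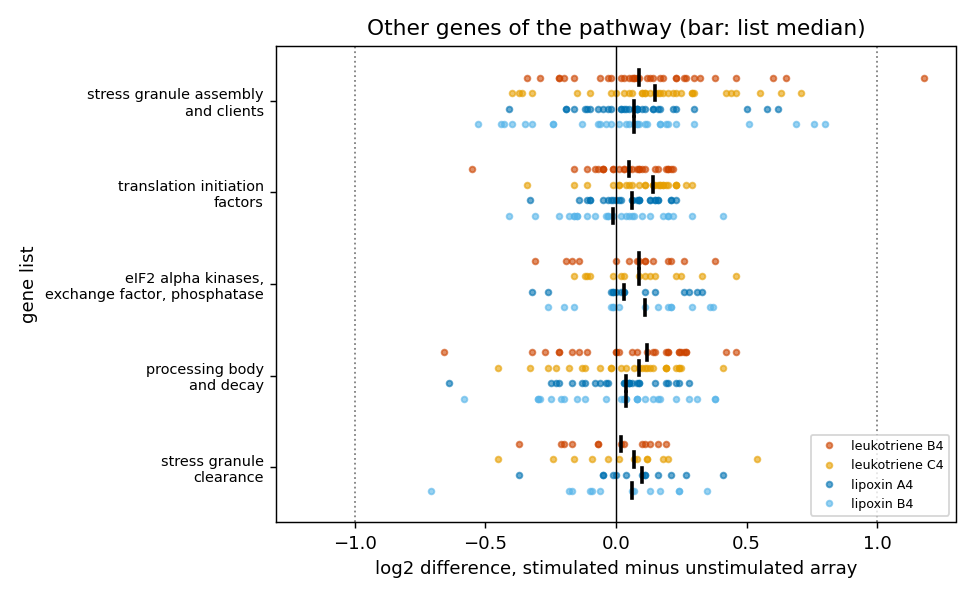
Log2 differences from the unstimulated array of the measured genes of 5 pathway lists, each by its brightest probe set, 1 point per gene and array. The list median is a black bar and dotted lines mark 2-fold. The medians lie between -0.01 and 0.15, and 1 point, TDRD3 with leukotriene B4 at 1.18, lies beyond 2-fold.

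The genes whose 4 differences were most like those of ATXN2L were sought among 11015 others above the floor on all 5 arrays, by the root mean square distance on the log2 scale. The nearest was SRCAP, the ATPase of a chromatin remodelling complex, at a distance of 0.13. It had 290.0 with leukotriene B4, 202 with leukotriene C4, 321 with lipoxin A4 and 231 with lipoxin B4, against 601 on the unstimulated array, but its other 3 measured probe sets ranged from -1.40 to 0.36. Next came MC1R, a melanocortin receptor (0.17), TAF1L, a retrocopy of a TFIID subunit (0.19), SETD1A, a histone H3 methyltransferase (0.19), and the pseudogene CLEC4GP1 (0.24). On the stimulated arrays MC1R (65.1 to 78.9), TAF1L (50.9 to 82.7) and CLEC4GP1 (53.6 to 79.1) were dim, near the floor of 48.7. Their unstimulated signals were 152, 129.5 and 127. SETD1A had 133, 154, 227 and 167 with leukotriene B4, leukotriene C4, lipoxin A4 and lipoxin B4, against 374. All of these distances rest on differences that share the unstimulated array.

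Of the 12 protein-coding genes nearest to ATXN2L on chromosome 16, 6 on each side, 6 were measured. By its brightest probe set none of these 6 was 2-fold lower on any array, and SULT1A1, a sulphotransferase, was the 1 lower on all 4 (-0.04 to -0.32). Other probe sets of these genes reached further down, to -2.00 for RABEP2, an endosomal effector protein, and to -1.12 for SULT1A1. TUFM, the mitochondrial elongation factor next to ATXN2L, had 8865 with leukotriene B4, 9932 with leukotriene C4, 9247 with lipoxin A4 and 8695 with lipoxin B4, against 8965 on the unstimulated array. SH2B1, an adaptor of receptor tyrosine kinases and the gene after TUFM, had differences of -0.23 to 0.34.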

How the data were processed

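The authors made the deposited intensity values, linear signals for 54675 probe sets on each of 5 arrays, with GCOS 1.4, per the submitters' processing notes, which name no signal algorithm. The trimmed mean of the deposited signals (without 2% at each end) was 500.1 on every array, so arrays had been scaled before deposit. Signals were taken to log2, scaled by factors of 0.978 to 1.03 to an equal median of the upper 50% of probe sets, and raised to a floor of 48.7, the 50th percentile of mean log2 signal. Probe sets above the floor on 1 array or more were measured (36755; 15374 genes). The 62 control probe sets entered no count. Of all probe sets, 41097 had 1 symbol, 1801 several and 11777 none listed; 41043 matched the RefSeq gene table (GRCh38.p14). Signals of different probe sets depend on probe affinity, so genes were not ranked by level; brightness served to pick and class probe sets. The number of arrays limits the precision.

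With 1 array per condition no test was possible. Differences of 2-fold or 1.5-fold were counted and set beside the share of all features. The counting was tested on simulated data with a fixed noise and with lowered signals placed only in brighter probe sets, so dimmer ones were not covered. The members, the lists and the rules were chosen with earlier results of these data known. Named pathway genes were those whose brightest probe set was at least 2-fold apart on at least 1 array, up to 4 per list. The eIF2 alpha genes, neighbours of ATXN2L and UBAP2L were added after values were seen. The 5 genes nearest to ATXN2L were named. Alternatives were quantile normalization, the values as deposited, floors at the 30th (17.4) and 70th (244) percentiles or none, and the mean of all measured probe sets. Python 3.11.15, numpy 2.4.6 and pandas 2.3.3 were used.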

Additional observations from a re-analysis of the deposited data

How the results depend on the processing

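The log2 differences of ATXN2L stayed below 0 under all 6 alternatives to the scaling, the floor and the choice of probe set. This supports nothing about their direction, since ATXN2L was chosen for being lower. Its brightest probe set lay above every floor used, so a change of floor could not alter its differences. The differences ranged from -1.19 to -1.28 with leukotriene B4 and -1.38 to -1.48 with leukotriene C4. With lipoxin A4 they ranged from -0.76 to -0.92 and with lipoxin B4 from -1.23 to -1.54. The mean of both probe sets gave the -1.54 in place of -1.23. The count of member genes at least 2-fold lower held at 1, 1, 0 and 1 for the 4 compounds; at 1.5-fold the count with lipoxin A4 was 1. The count of member genes lower on all 4 arrays was 2, and 3 with quantile normalization or the values as deposited, where PABPC1 joined, but 5 with the mean of all measured probe sets, where G3BP1, CAPRIN1 and TIAL1 joined through their dimmer probe sets. No paired analysis was possible because each condition has 1 array. Probe sets near the floor limit what can be read: 2 of the 34 measured member probe sets were below it on 1 array or more. These are G3BP1 1557350_at and CAPRIN1 236850_at, and they enter the means of those genes.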

Other observations

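Of the 115 measured genes of the pathway lists, 16 were lower on all 4 stimulated arrays and 47 higher; 3 of the 16 are given here, picked out after their values were seen. EIF4G1, the scaffold of the cap-binding complex, had 4756 with leukotriene B4, 5527 with leukotriene C4, 5556 with lipoxin A4 and 5260.3 with lipoxin B4, against 6984 on the unstimulated array. PRRC2A, a large protein found in stress granules, had 2821, 2777, 3132 and 2476 in the same order, against 3568, while its other 2 probe sets had log2 differences of -0.39 to 0.23. PAN2, a subunit of a poly(A) nuclease, had 252, 290.0, 255 and 267, against 397.

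Of the 5 genes nearest in pattern to ATXN2L, SRCAP, MC1R and SETD1A lie on chromosome 16, as ATXN2L does, while 4.66% of the 11016 genes above the floor on all arrays lie there. The 5 were found through the values for which ATXN2L was chosen, so their place on the chromosome tests nothing. Other probe sets of SRCAP had differences of -1.40 to 0.36, and MC1R was dim, at 65.1 to 78.9 on the stimulated arrays. Over all measured genes, 15 of 679 on chromosome 16 (2.21%) were at least 1.5-fold lower on all 4 stimulated arrays, close to the 1.90% of all 15374 genes.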
